A study of Homo sapiens with 12 samples.

Results

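The 32 genes described here encode proteins of the nuclear pore complex. They were chosen by name, not by a rule on measured values, from the 22379 genes of a spike-in-normalised mRNA table. Earlier results of these data were known when they were chosen. NUP93, which 1 arm of the study targeted with Cas9, is among them. All 32 were present in the table and all 32 averaged at least 10 over the untreated libraries, of which there were 6, the level that 13811 genes reached and above which genes were tested. Following the known architecture of the pore, they were divided into the inner ring (5 genes), the outer ring (9), the central channel (4), the cytoplasmic side (7), the nuclear basket (3) and the membrane ring (4).

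Messenger RNA was measured in the human osteosarcoma line U2OS, in 6 groups of 2 libraries each. A transiently transfected plasmid carried Cas9, a puromycin marker and a guide RNA, and the guide was nontargeting (NONT), against NUP93 (NUP93-KO) or against EXOSC5 (EXOSC5-KO), which encodes a core protein of the exosome, the complex that digests RNA from 3′ ends. Each genotype received either DMSO, called untreated below, or 1 μM triptolide over 8 h. Triptolide inhibits XPB, a helicase of the general factor TFIIH, and thereby stops RNA polymerase II from starting transcription, so the mRNA present after the drug is largely what had been made before it. The knockouts were pools of selected cells and not clones, and per the study's methods they spent less time in selection and expansion than NONT cells, so the guide and the time since transfection cannot be told apart. The labels do not say whether the replicates were separate cultures, and all p-values therefore measure only the spread between these libraries.

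The nuclear pore is the channel through which mRNA leaves the nucleus and proteins pass in both directions. Its inner ring lines the channel, 2 outer rings of Y-shaped complexes cap it on either face, and a membrane ring anchors it in the nuclear envelope. Phenylalanine-glycine repeats of the channel proteins form the barrier, filaments on the cytoplasmic side strip export factors from mRNA, and the basket receives cargo on the nuclear side. Scaffold proteins of the pore are among the longest-lived proteins known, whereas the channel and basket proteins exchange more readily. Only mRNA was measured here.

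The guide against NUP93 is shown because it defines the NUP93-KO libraries. Its target is printed 5′ to 3′ on the plus strand of GRCh38 with flanking bases, and capitals mark the guide sequence followed by the AGG motif that Cas9 requires.
NUP93 site: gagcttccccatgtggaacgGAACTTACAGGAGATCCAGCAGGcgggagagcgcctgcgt
Nontargeting guide: cggcggtcacgaactccagc
The NUP93 guide matched 1 position of the main chromosomes exactly, chr16:56748340-56748359, which lies in exon 2 of 22. The predicted cut follows base 56748356, at codon 37 and coding base 109 of 2457, so that the exon is cut near the start of the protein. The nontargeting guide had 0 exact matches. A cut at this place alters the coding sequence and need not remove the mRNA, and the values below count the whole transcript and not the edited part.

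Approximate depth was 8.55 M to 11.9 M reads per library (M, mega), and the number of genes with a nonzero value was 15795 to 16523. The least covered member in each treated library was NUP153, with about 26.9 to 49.8 reads, and in 5 of the 6 untreated libraries it was NUP42. Replicates differed in overall scale. The median log2 difference of replicate 1 minus replicate 2 over genes was −0.51 in NONT untreated and 0.25 in NONT triptolide, against −0.14 to 0.11 in the other groups, so the NONT untreated libraries stood furthest apart. Markers of the mesenchymal and osteoblast lineage were present, with VIM at 24275 to 66974, SPARC at 7368 to 19756 and COL1A1 at 15197 to 57588, but TWIST1 and IBSP were listed at 0 in every library. The summed signal of 10 mesenchymal and osteoblast markers was 88872 to 145238 untreated and 46918 to 73664 after triptolide. That of 4 epithelial markers was 57.2 to 122 and 35.5 to 88.5, and that of 3 endothelial markers 17.3 to 78.0 and 3.22 to 16.53. Over all 12 libraries the haematopoietic marker PTPRC was at 0 to 4.70, CD14 at 0 to 3.08 and CD3E at 0. The part of such cells in the results was not tested. The other targeted gene, EXOSC5, had a signal of 299 and 481 in NONT untreated, 376 and 376 in NUP93-KO untreated and 216 and 148 in EXOSC5-KO untreated.

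Without drug the pore mRNAs spanned a wide range of levels. Scaled by transcript length, the signal per kilobase in NONT untreated cells was highest for SEC13 at 1846, an outer ring protein that also coats secretory vesicles, and SEH1L at 1208, an outer ring protein shared with a nutrient-sensing complex. It was lowest for NUP88 at 88.9 and NUP210 at 35.5. SEC13 and SEH1L held the first and second place, and NUP88 and NUP210 the last places, in the other genotypes too, where SEC13 was at 1618 (NUP93-KO) and 1756 (EXOSC5-KO) and NUP210 at 30.998 and 25.8. Together the 32 genes made up 0.353% and 0.372% of the gene signal in the NONT untreated libraries, 0.341% and 0.327% in those of NUP93-KO and 0.341% and 0.331% in those of EXOSC5-KO.

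On the spike-in scale triptolide lowered pore mRNA in all 3 genotypes, by very different amounts from gene to gene. The share of mRNA left, the mean of the treated libraries as a percentage of the untreated mean, ran from 1.85% for NUP153 to 56.2% for NUP210 in NONT cells, with a median of 26.8% over the 32 genes. In NUP93-KO cells it ran from 2.95% to 91.8% with a median of 46.2%, and in EXOSC5-KO cells from 3.01% to 85.0% with a median of 37.6%, with the same genes at the ends. Under 25% was left of 12 members (NONT), 6 members (NUP93-KO) and 7 members (EXOSC5-KO), and over 50% was left of 1, 15 and 10 members. NUP210 was the single member whose treated and untreated libraries overlapped, and it did so in each genotype. Shares of all genes were not counted for the overlap or for the 25% and 50% limits, so these counts describe the members alone.

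In limma's test with Benjamini-Hochberg adjustment over all 13811 genes, 32 of 32 members fell in NONT, where 90.0% of all genes tested were called lower. In NUP93-KO 28 of 32 fell, against a background of 55.1%, and in EXOSC5-KO 30 of 32, against 64.3%; 0 rose in any genotype. The members that missed the threshold of 0.05 were NUP188, NUP107, AAAS and NUP210 in NUP93-KO and AAAS and NUP210 in EXOSC5-KO. The median log2 fold change of the members was −1.84 for NONT, −1.12 for NUP93-KO and −1.41 for EXOSC5-KO. The median over all genes was −1.62, −0.92 and −1.08. Relative to it the members' median was −0.22, −0.20 and −0.33, and 25, 21 and 22 of the 32 were below the median gene.

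These directions belong to the spike-in scale, which follows mRNA per cell. In bulk cultures a smaller number of cells of one kind and less mRNA per cell cannot be told apart. Rescaling each library to the same total moved the median gene to −0.32 (NONT), −0.36 (NUP93-KO) and −0.29 (EXOSC5-KO), and 20 members were then called lower in each genotype, against 38.2%, 39.3% and 36.8% of all genes, and 1, 0 and 4 higher, against 15.2%, 13.9% and 14.7%. With median-of-ratios scaling the median gene lay at −0.02, −0.04 and −0.02, and 12, 11 and 13 members were called lower, against 30.5%, 30.0% and 28.9% of all genes, and 6, 7 and 5 higher, against 26.8%, 26.2% and 25.8%. On both scales the members were thus above the background in lower calls and below it in higher calls. With median of ratios both gaps were modest and of similar size. None of these gaps was tested. Of all genes called, the percentage called lower went from 99.9 (NONT), 99.8 (NUP93-KO) and 99.9 (EXOSC5-KO) on the spike-in scale to 71.5, 73.9 and 71.5 with equal totals and to 53.2, 53.4 and 52.9 with median of ratios. On all 4 scales used, 10 members were called lower in all 3 genotypes, namely AHCTF1, NUP153, NUP50, NUP54, NUP62, NUP98, POM121, POM121C, RAE1 and RANBP2. AAAS, NUP188, NUP210, NUP93 and SEC13 were called higher in all 3 genotypes with median-of-ratios scaling, where the reference is the typical gene and not the cell. No count of all genes meeting either criterion was made, so both lists describe the members alone. As a share of the library, which does not depend on the spike-ins, the 32 members came to 0.228% and 0.234% in NONT triptolide, 0.209% and 0.208% in NUP93-KO triptolide and 0.208% and 0.207% in EXOSC5-KO triptolide, each below both untreated libraries of its genotype.

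**Figure D1:**
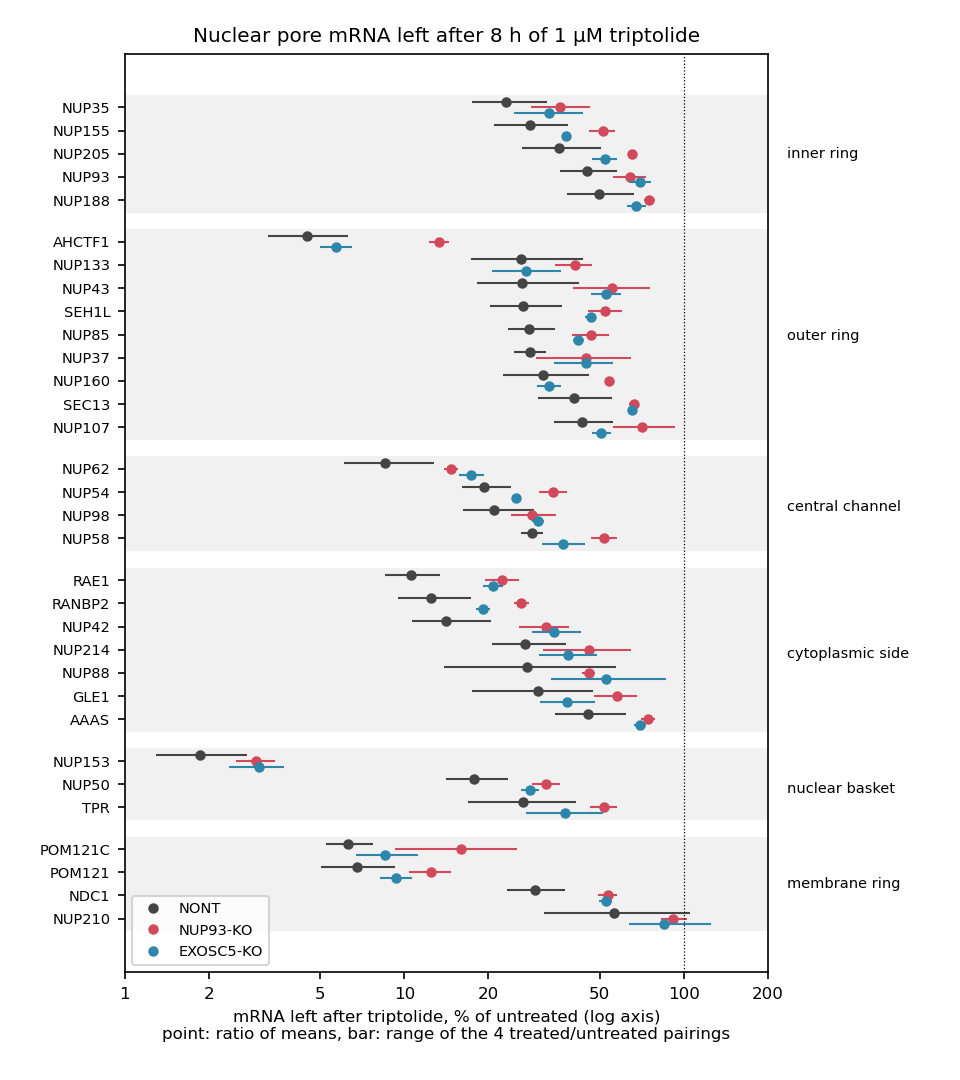
mRNA left after triptolide for the 32 pore genes, on a log axis in percent of untreated. Points are the ratio of the group means on the spike-in scale, bars the range over all 4 treated-to-untreated library pairs, and colours the genotypes; NUP153, AHCTF1, NUP62, POM121 and POM121C lie furthest to the left and NUP210 furthest to the right. With libraries rescaled to equal totals or by median of ratios, the log2 fold change of NUP210 was above 0 in all 3 genotypes.

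The nuclear basket held the member with the least mRNA left. NUP153, which docks transport receptors and mRNA at the nuclear face, had a signal of 1004 and 1581 in NONT untreated and 27.4 and 20.5 after triptolide. In NUP93-KO it went from 989 and 1072 to 33.9 and 26.8, and in EXOSC5-KO from 1369 and 1250 to 46.6 and 32.3. Every treated library was thus at a small fraction of every untreated one. The log2 fold changes were −5.67 ± 0.29 (SE; adjusted p = 1.16e-10, limma) in NONT, −5.05 ± 0.29 (adjusted p = 1.88e-09) in NUP93-KO and −5.04 ± 0.29 (adjusted p = 1.11e-09) in EXOSC5-KO. NUP50, a cofactor of importins at the basket, kept 17.8%, 32.1% and 28.1% of its mRNA in NONT, NUP93-KO and EXOSC5-KO. Of the 31-base windows of the NUP50 transcript 20.5% also occur in other genes, so its value is less certain. TPR, the long coiled coil that builds the basket, kept 26.7%, 51.6% and 37.5%, and all 3 basket genes fell in all 3 genotypes.

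The membrane ring held both steep losses and the shallowest. POM121, an integral membrane protein needed for pore assembly in interphase, had a signal of 1584 and 2328 in NONT untreated and 147 and 117 after triptolide. In NUP93-KO it went from 1733 and 1838 to 191 and 253, a log2 fold change of −3.01 ± 0.23 (adjusted p = 2.13e-08, limma), and in EXOSC5-KO from 2019 and 1756 to 186 and 166. Its near copy POM121C kept 6.30%, 16.0% and 8.51%. The values of this pair are uncertain, because 69.8% of the 31-base windows of the POM121 transcript and 74.3% of those of POM121C also occur in other genes, mostly in each other.

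NUP210, a large membrane glycoprotein of the pore, moved least. Its signal was 170 and 342 in NONT untreated against 179 and 108 after triptolide, 204 and 242 against 209 and 201 in NUP93-KO, and 240 and 131 against 152 and 163 in EXOSC5-KO. In each genotype at least 1 treated library thus lay above an untreated one. The log2 fold change was −0.79 ± 0.35 (adjusted p = 0.0459, limma) in NONT, −0.12 ± 0.35 (adjusted p = 0.801) in NUP93-KO and −0.17 ± 0.35 (adjusted p = 0.675) in EXOSC5-KO. In NONT the adjusted p ranged from 0.00702 to 0.488 over 13 alternatives, the highest without replicate 2 of NONT untreated. NDC1, which holds the membrane ring to the inner ring, fell in all 3 genotypes and kept 29.4%, 53.3% and 52.5%.

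Of the central channel, NUP62 lost most. NUP62 forms the barrier with NUP58 and NUP54, and its signal was 1700 and 2933 in NONT untreated against 216 and 178 after triptolide. The values in NUP93-KO were 1794 and 1730 against 249 and 269, and those in EXOSC5-KO were 1741 and 1432 against 275 and 272. The loss left 8.51%, 14.7% and 17.2%. Of the 31-base windows of NUP62 22.7% also occur in other genes, so its value is less certain. Its partners kept more, NUP54 19.3%, 34.1% and 25.1% and NUP58 28.7%, 51.9% and 36.9%. NUP98, whose transcript encodes both the barrier protein NUP98 and the outer ring protein NUP96, kept 20.9%, 28.6% and 30.01%. All 4 channel genes fell in all 3 genotypes, and all 4 were below the median gene in each.

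**Figure D2:**
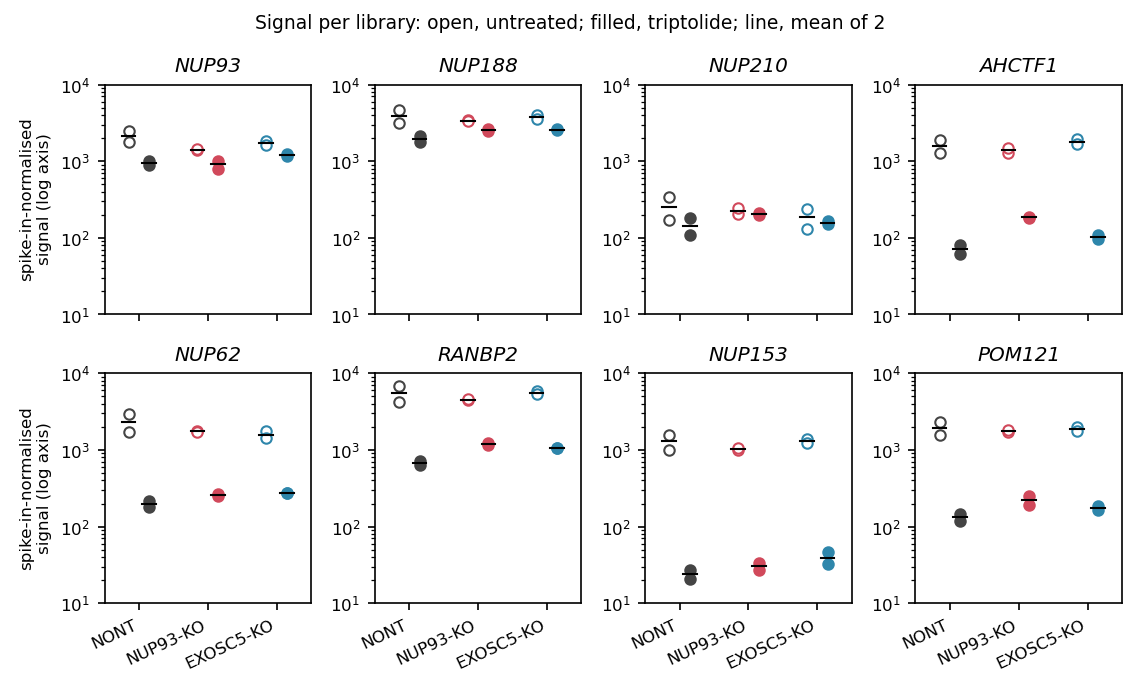
Signal of 8 pore genes in every library, on a log axis in spike-in-normalised units. Open circles are untreated and filled circles triptolide libraries, and lines are means of 2; NUP153 lies between 989 and 1581 untreated and between 20.5 and 46.6 after triptolide, whereas the treated and untreated libraries of NUP210 overlap in each genotype.

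In the outer ring AHCTF1 stood apart. AHCTF1, also called ELYS, binds chromatin and seeds the pore when the nucleus re-forms after mitosis. Its signal was 1293 and 1888 in NONT untreated and 81.1 and 61.6 after triptolide, 1924 and 1675 against 95.8 and 109 in EXOSC5-KO, and 1286 and 1488 against 183 and 186 in NUP93-KO. The treated NUP93-KO libraries were above all other treated libraries. The log2 fold change was −4.45 ± 0.23 (adjusted p = 1.35e-10, limma) in NONT and −4.12 ± 0.23 (adjusted p = 1.004e-09) in EXOSC5-KO. Of its 31-base windows 57.4% also occur in other genes, above all in the copy AHCTF1P1, so this value is uncertain too.

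The other 8 outer ring genes kept between 26.2% (NUP133) and 43.3% (NUP107) in NONT, between 40.8% (NUP133) and 70.9% (NUP107) in NUP93-KO and between 27.3% (NUP133) and 65.2% (SEC13) in EXOSC5-KO. NUP133 and NUP107 form the stem of the Y, NUP160 and NUP37 lie in one arm, NUP85, NUP43 and SEH1L in the other, and SEC13 sits where they meet. NUP107 in NUP93-KO, at 784 and 1133 untreated against 631 and 728 after triptolide, was the single outer ring gene that missed the threshold in any genotype. NUP160 kept 53.8% in NUP93-KO, but 31.5% and 32.9% in NONT and EXOSC5-KO, where the NUP93-KO response was not called different from that of NONT and was not tested against that of EXOSC5-KO.

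The cytoplasmic side was mixed. RAE1, which docks mRNA export factors on NUP98, went from 1367 and 1874 to 160 and 183 in NONT and kept 10.6%, against 22.4% in NUP93-KO and 20.8% in EXOSC5-KO. RANBP2, the giant filament protein that holds the Ran GTPase-activating protein at the pore, went from 4186 and 6794 to 722 and 642 in NONT and kept 12.4%, against 26.2% and 19.1%. RANBP2 had the most reads of all members in every untreated library, and 32.9% of its 31-base windows also occur in other genes, mainly of the RGPD family, so that its value is uncertain.

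NUP42, a cofactor of GLE1, kept 14.1%, 32.02% and 34.4%, and GLE1, which activates the export helicase DDX19, kept 29.98%, 57.5% and 38.3%. Of the pair that anchors that helicase, NUP214 kept 26.9%, 45.7% and 38.4% and NUP88 kept 27.5%, 45.7% and 52.7%. AAAS, the protein aladin, kept most, with 519 and 799 in NONT untreated against 321 and 276 after triptolide. The NUP93-KO values were 477 and 524 against 376 and 368, and the EXOSC5-KO values 480 and 442 against 320 and 323. Its treated libraries were below its untreated ones throughout, yet the log2 fold change of −0.52 ± 0.23 in EXOSC5-KO missed the threshold (adjusted p = 0.0536, limma).

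By its median the inner ring kept most. NUP188, one of its large scaffolds, was at 3193 and 4612 in NONT untreated against 2125 and 1763 after triptolide. In NUP93-KO the values were 3411 and 3317 against 2449 and 2607, and in EXOSC5-KO they were 4024 and 3592 against 2623 and 2526. Its log2 fold change was −0.99 ± 0.19 (adjusted p = 0.000187, limma) in NONT and −0.41 ± 0.19 (adjusted p = 0.0823) in NUP93-KO, and under both library-size scalings it turned above 0 in these genotypes. After triptolide NUP188 had taken the place of RANBP2 as the member with the most reads in every library. NUP205, its sister scaffold, kept 35.7%, 65.3% and 52.2%, and NUP155, which faces the membrane, kept 28.1%, 51.2% and 37.8%. NUP35, a small adaptor, kept least of the ring, with 23.0%, 35.99% and 33.1%.

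Ordered by the median share left in NONT, the groups ran from the nuclear basket (17.8%), the membrane ring (18.1%) and the central channel (20.1%) through the cytoplasmic side (26.9%) and the outer ring (28.0%) to the inner ring (35.7%). The inner ring was also highest in both knockouts, at 64.4% (NUP93-KO) and 52.2% (EXOSC5-KO), and relative to the median gene its median log2 fold change was 0.17, 0.27 and 0.13 in the genotypes in the order above. That of the membrane ring was lowest in each genotype, at −1.19, −0.88 and −1.10, beside −0.83, −0.72 and −0.75 for the basket and −0.65, −0.75 and −0.79 for the central channel. By the share left the central channel, at 31.3% and 27.6%, and not the basket, at 32.1% and 28.1%, was lowest in NUP93-KO and EXOSC5-KO, so the order of these 3 groups depended on the genotype and the measure. The ranges overlapped, since the membrane ring spanned 6.30% to 56.2% in NONT and the outer ring 4.49% to 43.3%, and with 3 to 9 genes a group these medians are a description. In all 3 genotypes, 20 members lay below the median gene and 7 above it (AAAS, NUP107, NUP188, NUP205, NUP210, NUP93 and SEC13).

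The targeted gene was compared next. NUP93, the linker that ties the inner ring scaffolds to the NUP62 channel, had a signal of 1753 and 2489 in NONT untreated, 1395 and 1432 in NUP93-KO untreated and 1805 and 1618 in EXOSC5-KO untreated. Both NUP93-KO libraries were below all 4 others, but the log2 difference from NONT was −0.56 ± 0.20 and missed the threshold (adjusted p = 0.926, limma). It was the most negative difference of the 32 members. With equal library totals or median-of-ratios scaling NUP93 was called lower in NUP93-KO, and over 13 alternatives the adjusted p ranged from 0.0416 to 1. After triptolide NUP93 had a signal of 1007 and 899 (NONT), 801 and 1019 (NUP93-KO) and 1153 and 1231 (EXOSC5-KO), and the NUP93-KO difference from NONT, −0.07, was again the lowest of the 32, whose median difference was 0.57.

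NUP93 fell after triptolide in all 3 genotypes on the spike-in scale, by 1.13 ± 0.20 on the log2 scale in NONT (adjusted p = 7.27e-05, limma), by 0.64 ± 0.20 in NUP93-KO (adjusted p = 0.0119) and by 0.52 ± 0.20 in EXOSC5-KO (adjusted p = 0.0323), but its change lay above 0 in all 3 with median-of-ratios scaling and in NONT and EXOSC5-KO with equal totals. It was among the members that kept most, with 44.9%, 64.4% and 69.7%. The difference of its response from that of NONT was 0.49 ± 0.28 in NUP93-KO (adjusted p = 0.186, limma) and 0.61 ± 0.28 in EXOSC5-KO (adjusted p = 0.210). In NUP93-KO it turned below 0 on the other scales, to −0.28 with equal totals, −0.26 with median of ratios and −0.17 with equal mitochondrial sums.

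As a share of the summed signal of the 32 members, a measure free of the library's scale, NUP93 made up 4.39% and 4.07% in NONT untreated, 3.40% and 3.30% in NUP93-KO untreated and 3.67% and 3.64% in EXOSC5-KO untreated. After triptolide the shares were 7.44% and 7.85%, 4.67% and 5.58%, and 6.92% and 7.42%. Within each treatment both NUP93-KO libraries were lowest and both NONT libraries highest. Averaged over the treatments, the difference was −1.70 percentage points for NUP93-KO minus NONT, −1.18 for NUP93-KO minus EXOSC5-KO and −0.52 for EXOSC5-KO minus NONT. Each of these 3 comparisons gave p = 0.0556 in an exact two-sided permutation test within treatments, before and after adjustment, which is the smallest value that 36 arrangements allow, so that a p-value under 0.05 was out of reach.

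**Figure D3:**
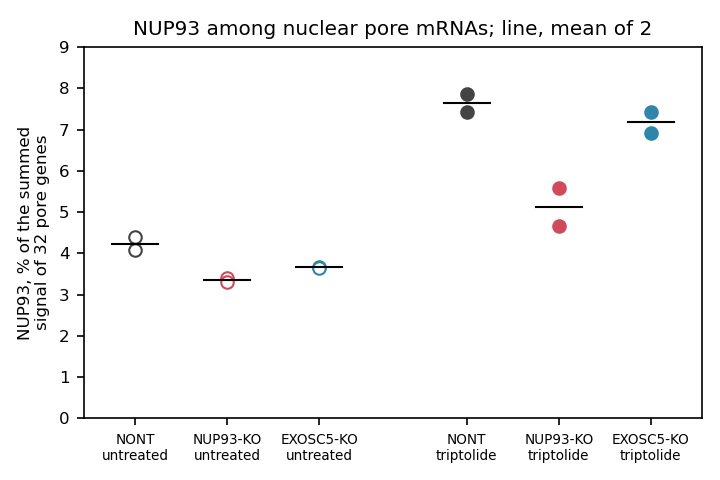
NUP93 as a percentage of the summed signal of the 32 pore genes, for each library, with lines at the mean of 2. The NUP93-KO libraries lie between 3.30% and 3.40% without drug and between 4.67% and 5.58% with triptolide, below the other genotypes of the same treatment.

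Without drug no member passed the test between a knockout and NONT. In NUP93-KO 0 of 32 members were called in limma's test, where 0.0217% of all genes were, and 1 member, NUP93, had an unadjusted p under 0.05, as did 4.20% of all genes. In EXOSC5-KO 0 of 32 were called, against 0.521% of all genes, and 3 members, NUP62, AAAS and NDC1, had an unadjusted p under 0.05, all with lower values in the knockout. Over all genes 8.49% did so in either direction and 2.46% with lower values. The log2 differences ran from −0.56 (NUP93) to 0.16 (POM121C) in NUP93-KO and from −0.50 (NUP62) to 0.34 (NUP42) in EXOSC5-KO. NUP62 in EXOSC5-KO was at −0.50 ± 0.24 (adjusted p = 0.588, limma), with an adjusted p of 0.00959 to 1 over 13 alternatives. Scaling bore on these counts, which came to 1 (NUP93) and 3 (NDC1, AAAS and NUP62) with libraries rescaled to the same total, to 1 and 6 with median-of-ratios scaling, and to 0 and 7 with equal mitochondrial sums. Of all genes 0.970%, 0.941% and 0.116% were called in NUP93-KO on these scales and 4.88%, 5.81% and 5.76% in EXOSC5-KO. The percentage of all called genes that were lower in EXOSC5-KO was 6.94 on the spike-in scale, from 72 genes, and 42.9, 64.5 and 90.4 on these 3 scales, while in NUP93-KO it was 33.3, from 3 genes, and 36.6, 48.5 and 37.5.

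Each knockout was compared with the same NONT libraries, so the 2 sets of differences are not independent. The members' median relative to that of all genes was −0.16 (NUP93-KO) and −0.14 (EXOSC5-KO), with 28 and 27 of 32 members below the median gene. All 5 inner ring genes were below it in both knockouts, with log2 differences of −0.41 (NUP35), −0.37 (NUP205), −0.28 (NUP155) and −0.19 (NUP188) beside NUP93 in NUP93-KO. None of these 4 passed the test.

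The response to triptolide was then compared between genotypes, as the log2 fold change in a knockout minus that in NONT. All 32 differences were above 0 in both knockouts on the spike-in scale, but the median gene was too, at 0.74 (NUP93-KO) and 0.57 (EXOSC5-KO), and the members' medians of 0.77 and 0.53 lay beside it. In NUP93-KO 1 of 32 members was called in limma's test, against 0.775% of all genes, and 22 had an unadjusted p under 0.05, as did 41.6% of all genes. In EXOSC5-KO 0 of 32 were called, against 0.333% of all genes, and 9 had an unadjusted p under 0.05, as did 23.5% of all genes. With libraries rescaled to the same total, 16 of the differences were above 0 and 16 below in each knockout, and 0 were called.

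**Figure D4:**
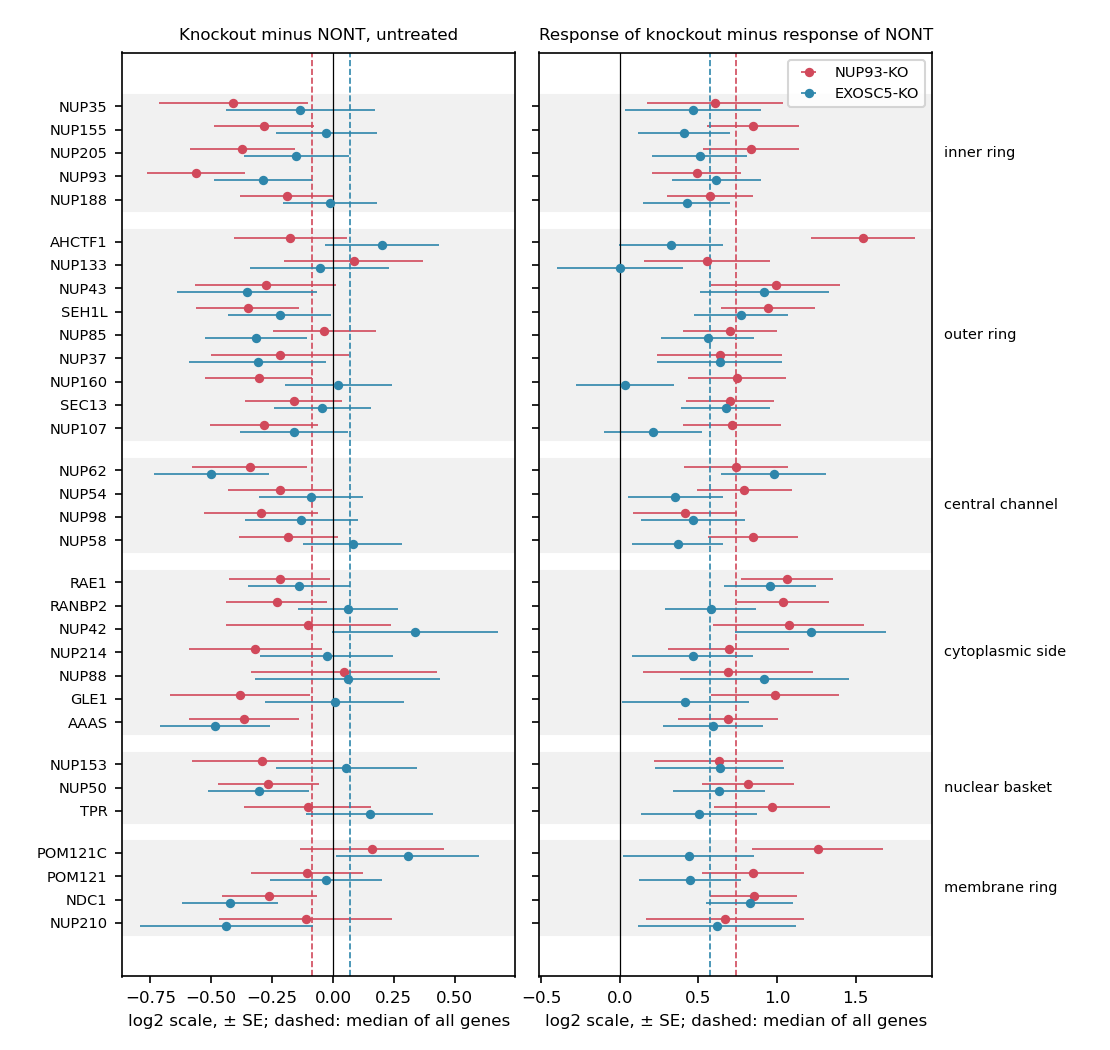
Log2 difference of each knockout from NONT without drug (left) and of its triptolide response from that of NONT (right), with standard errors, for the 32 pore genes on the spike-in scale. Dashed lines mark the median of all genes; most points on the right lie around 0.74 and 0.57, and AHCTF1 in NUP93-KO lies at 1.55, while with libraries rescaled to the same total the points on the right divide evenly about 0.

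The member called in NUP93-KO was AHCTF1, whose response differed from NONT by 1.55 ± 0.33 (adjusted p = 0.0452, limma). The mRNA left was 13.3% in NUP93-KO, with a range of 12.3% to 14.5% over the 4 pairings of libraries, and 4.49% in NONT, with a range of 3.26% to 6.28%. AHCTF1 also made up 1.06% and 1.02% of the members' summed signal in NUP93-KO triptolide, against 0.60% and 0.54% in NONT triptolide and 0.57% and 0.66% in EXOSC5-KO triptolide, while untreated shares were 3.09% to 3.92%. Over 17 alternatives the adjusted p ranged from 0.00343 to 0.685, and it was under 0.05 in 6 of the 18 settings. The largest differences that were not called were those of POM121C in NUP93-KO, 1.26 ± 0.42 (adjusted p = 0.0703), and of NUP42 in EXOSC5-KO, 1.21 ± 0.48 (adjusted p = 0.185). NUP133 and NUP160 were nearest to 0 in EXOSC5-KO, at 0.0013 and 0.03.

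These counts rested on the NONT libraries. Without replicate 1 of NONT untreated, the lower of the pair, 27 members were called higher in NUP93-KO and 18 in EXOSC5-KO, along with 7040 (51.0%) and 5280 (38.2%) of the 13811 genes, and without replicate 2 there were 0 members and 0 genes in either knockout. Without replicate 1 of NONT triptolide 7 members were called higher in NUP93-KO, along with 18.0% of all genes. With genes tested only from an untreated mean of 50, 3 members were called higher in NUP93-KO (AHCTF1, RANBP2 and RAE1), where 9.05% of genes were called.

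Genes that act around the pore were counted beside it. Of all genes tested 90.0% (NONT), 55.1% (NUP93-KO) and 64.3% (EXOSC5-KO) were called lower, which is the background for both lists. Of 14 mRNA export and Ran cycle genes, 14 fell in NONT, 12 fell in NUP93-KO and 13 fell in EXOSC5-KO. Their median log2 fold change relative to the median gene was 0.01, −0.08 and −0.02. The steepest was NXT1, the small partner of the export receptor NXF1, with a signal of 345 and 395 in NONT untreated against 5.41 and 5.36 after triptolide, and of 9.58 and 8.91 in treated NUP93-KO and 15 and 14 in treated EXOSC5-KO cells. Of 12 envelope and lamina genes, 11, 4 and 7 fell, and their medians relative to the median gene were 0.46, 0.50 and 0.38. Among these CHMP7, which recruits the machinery that seals the envelope, was lowest, with log2 fold changes of −3.33, −2.26 and −2.45. In neither list was a gene called higher after triptolide, where 7 (NONT), 19 (NUP93-KO) and 11 (EXOSC5-KO) of the 13811 genes were. None passed the test between a knockout and NONT without drug, where 0.0217% (NUP93-KO) and 0.521% (EXOSC5-KO) of all genes did. None passed the test of response either, where 0.775% and 0.333% did. Below the median gene in NONT lay 7 of 14 export and Ran genes and 3 of 12 envelope genes, beside 25 of 32 pore genes. In NUP93-KO these counts were 8, 4 and 21, and in EXOSC5-KO they were 7, 4 and 22.

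Features of the transcripts were set beside the mRNA left, as a description over 32 genes that share the same libraries. Spearman's rho with the log2 share left was −0.04 (NONT), −0.07 (NUP93-KO) and −0.16 (EXOSC5-KO) for mRNA length, −0.11, −0.11 and −0.12 for the length of the 3′ UTR, and 0.35, 0.29 and 0.15 for the number of exons. The pentamer ATTTA, the core of AU-rich elements, searched on the transcript strand alone with overlaps counted, occurred in the annotated 3′ UTR of 25 of 32 members (78.1%) and of 74.3% of the 12934 tested genes with such a region. Its density had a rho of −0.13, −0.12 and −0.25. NUP153, with the least mRNA left, had 3 in a 3′ UTR of 1060 bases, while NUP107, among the members that kept most in NONT and NUP93-KO, had 19 in 3347 bases. Other members went the other way. AHCTF1, with little mRNA left, had 8 in 1708 bases, and AAAS and SEC13, among those that kept most, had 0.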

How the data were processed

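Poly(A) RNA from U2OS cells was measured in 12 libraries, with groups and replicate numbers taken from the sample labels. The deposited values are a signal per gene that the authors made with kallisto 0.46.1 on the Ensembl GRCh38 transcripts and the 92 ERCC spike-ins, summed per gene with tximport and divided by DESeq2 size factors of the spike-ins, which had been added in proportion to cell number. Errors of cell counting or spike-in volume would therefore scale a whole library, and kallisto divides reads between near-identical transcripts. The table held 22471 rows, of which 22379 were genes, and 19584 gene IDs matched GENCODE release 44. Depth was approximated from the worth of 1 read, read off the spacing of values under 6, and sets counting error only.

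Values were analysed as log2(value + 1), which understates the change of low genes, with limma 3.58.1 in R 4.3.3 (lmFit with 6 group means over all 12 libraries, eBayes with trend). The study used DESeq2 on counts, which the deposited values are not. Genes with an untreated mean of at least 10 were tested in 7 two-sided contrasts with Benjamini-Hochberg adjustment and a threshold of 0.05. The fit was tested on simulated data in which few genes changed, in both directions and in a single group. In the triptolide contrasts most genes fell together, a setting that was not simulated. The member genes and all lists were chosen with earlier results of these data known. Values are given for all members, and full statistics for NUP93, for the 2 steepest and 2 shallowest triptolide responses per genotype, and for called members or else the member with the largest difference in the other contrasts; POM121C in the difference of response was added after its value was seen. Alternatives were another pseudocount, filter, scaling or prior, a replicate block, and leaving out each library. One gene is not reported here. Sequence windows of 31 bases were counted in GENCODE transcripts. Figures were made with matplotlib 3.10.9.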

Additional observations from a re-analysis of the deposited data

Results flagged for a closer look

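AHCTF1 was the member whose response to triptolide differed between genotypes in a test of the difference itself. Its log2 fold change in NUP93-KO exceeded that in NONT by 1.546 on the spike-in scale (adjusted p = 0.0452, limma). Its share left was higher in each of the 4 pairings of NUP93-KO libraries than in any of NONT. This separation was not particular to AHCTF1, since most members showed it, among them RANBP2, RAE1, NUP58, NDC1 and NUP188. The members without it were NUP93, NUP35, NUP107, NUP133, NUP43, NUP37, NUP98, NUP214, NUP88, NUP153 and NUP210. The share of all genes with it was not counted. The median gene differed by 0.74 in the same direction, so that 0.81 remained relative to it. The difference was 0.78 with libraries rescaled to equal totals (adjusted p = 0.171, limma) and 0.80 with median of ratios (adjusted p = 0.142), in the same direction but past the threshold on neither. Of its 31-base windows 56.8% also occur in the copy AHCTF1P1, whose part in the value was not tested.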

How the results depend on the processing

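Members lower after triptolide numbered 20 in each genotype with equal totals, beside 36.8% to 39.3% of all genes, and 12 (NONT), 11 (NUP93-KO) and 13 (EXOSC5-KO) with median of ratios, beside 28.9% to 30.5%. On equal totals the log2 fold change of NUP93 was 0.20 in NONT and 0.27 in EXOSC5-KO, that of NUP188 0.35 in NONT and 0.16 in NUP93-KO, that of NUP210 0.55 (NONT), 0.45 (NUP93-KO) and 0.62 (EXOSC5-KO), and that of AAAS 0.27 in EXOSC5-KO. With median of ratios NUP93 was at 0.51, 0.25 and 0.55 in the 3 genotypes, NUP188 at 0.65 in NONT and 0.48 in NUP93-KO, NUP210 at 0.85, 0.77 and 0.89, and AAAS at 0.55 in EXOSC5-KO. The response of NUP93 in NUP93-KO minus that in NONT was −0.28, −0.26 and −0.17 with equal totals, median of ratios and equal mitochondrial sums. These reversals follow from the shift of all genes between scales.

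Members changed without drug came to 1 in NUP93-KO with equal totals and with median of ratios, and in EXOSC5-KO to 3, 6 and 7 with equal totals, median of ratios and equal mitochondrial sums. Members with a different response in NUP93-KO came to 3 with an untreated mean of at least 50, where 9.05% of genes were called. They came to 0 with no filter, without the trend, on each of the 3 other scales and with the replicate block. Few genes of any kind were called higher there: 4 of 19002 with no filter and 0 of 13811 without the trend. Of the same 13811, 2 were called higher with equal totals, 2 with median of ratios, 1 with equal mitochondrial sums and 41 with the replicate block. The cause was not tested. Relative to the median gene, the members' triptolide median was −0.41, −0.29 and −0.45 with a pseudocount of 10 and −0.53, −0.41 and −0.56 without the filter. Deviations of same-numbered libraries correlated at −0.05 to 0.04 over 15 pairs of groups, so replicate number carried no shared gene-level pattern. A correlation over genes cannot show a shift of whole libraries, so it does not settle whether same-numbered libraries were handled together. The replicate block lowered the NUP93-KO count of different responses from 1 to 0 and moved no other count by over 1.5 times.

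Leaving out each library in turn, with a lone library assumed to vary like the other groups, gave 0 to 27 members with a different response in NUP93-KO and 0 to 18 in EXOSC5-KO, 31 to 32, 22 to 25 and 25 to 27 members lower after triptolide, and 0 changed without drug. The number of all genes called also moved in these fits, so these counts describe the members and do not set them apart from other genes. With a library left out, the log2 fold change of NUP210 ranged from −0.24 to 0.0052 in NUP93-KO and from −0.60 to 0.27 in EXOSC5-KO. The members' median relative to the median gene ranged from −0.16 to −0.12 in NUP93-KO and −0.39 to −0.24 in EXOSC5-KO after triptolide, and from −0.21 to −0.12 and −0.22 to −0.092 without drug. Each group rests on 2 libraries, which in NONT untreated differed in scale by a median of 0.51 (log2, replicate 2 higher), and low members such as NUP153 after triptolide rest on few reads.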
